A study of Mus musculus with 16 samples.

Results

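The genes described here encode the proteins of the cytosolic ribosome. They were taken from the liver RNA-seq table by symbol: names made of Rpl or Rps and a number, with an optional closing letter or number, plus Rplp0, Rplp1, Rplp2, Rpsa and Rpl13a, and without symbols ending in -ps, which name pseudogenes, and the Rps6k kinases. Of the 24082 genes measured, 84 matched. Of these, 81 had a normalized read count of at least 10 in at least 4 of the 16 libraries and were tested together with all other such genes, 12535 in all. They comprised 48 genes of the large (60S) and 33 of the small (40S) ribosomal subunit. The 3 genes left under the minimum were Rpl3l, Rpl10l and Rpl39l.

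The livers came from young adult female C57Bl6/J mice, 4 in each of 4 groups. Mice were fed an ethanol-containing liquid diet chronically or were pair-fed an isocaloric diet with maltose dextrin in place of the ethanol. Within each diet the mice received either vehicle (Pair control and EtOH control) or iodomethylcholine (Pair IMC and EtOH IMC). Iodomethylcholine (IMC) blocks the gut microbial choline TMA lyase, the enzyme with which gut bacteria make trimethylamine from choline. The study asked whether blocking this bacterial enzyme alters ethanol-induced liver injury. No mouse carried a transgene or deletion, and the drug was given in the diet, so the livers of IMC-treated mice also reflect any change in intake. The study's text describes less food eaten and lower body weight with ethanol and IMC together. A figure legend of the study also marks a body weight difference between pair-fed mice with and without IMC. The library numbers 1 to 8 hold the Pair IMC and EtOH control livers and 9 to 16 the Pair control and EtOH IMC livers. The labels do not say what the numbers mark. Within 1 diet, IMC and the run of numbers cannot be told apart. The same holds for ethanol within 1 treatment, and the difference of the IMC effects between the diets is the same contrast as numbers 9 to 16 against 1 to 8. In the IMC effect averaged over both diets each run of numbers contributes equally to both arms.

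Each ribosome joins a small subunit, which holds and decodes the mRNA, to a large subunit, which forms peptide bonds. Most proteins of both subunits are needed in equal numbers. Ribosomal protein mRNAs are among the most abundant in liver, an organ that secretes most plasma proteins. Many of these mRNAs begin with a cytidine followed by a run of pyrimidines, the 5′ terminal oligopyrimidine (TOP) motif, through which mTORC1 and the RNA-binding protein LARP1 control their translation and stability.

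Start sites are shown here because the TOP motif is the sequence feature by which this gene family is known. Members with and without a run near the annotated start can also be set beside each other in the comparisons. RefSeq start sites (GRCm38.p6) were matched for 60 of the 81 genes. Each line gives the 10 bases before the annotated start and the 20 bases from it, read 5′ to 3′ on the gene's strand. Capitals mark a cytidine followed by at least 4 more pyrimidines, within 5 bases of the start. The first 6 genes have such a run.
Rps6, chr4:86857348-86857377 (minus strand): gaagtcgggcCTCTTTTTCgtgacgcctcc
Rps18, chr17:33955646-33955675 (minus strand): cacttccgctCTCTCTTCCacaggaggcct
Rplp2, chr7:141447641-141447670 (plus strand): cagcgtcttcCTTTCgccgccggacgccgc
Rps27, chr3:90213629-90213658 (minus strand): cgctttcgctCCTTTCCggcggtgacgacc
Rpl13a, chr7:45128726-45128755 (minus strand): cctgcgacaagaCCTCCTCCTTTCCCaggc
Rpl22l1, chr3:28805498-28805527 (plus strand): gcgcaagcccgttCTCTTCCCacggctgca
Rplp0, chr5:115559457-115559486 (plus strand): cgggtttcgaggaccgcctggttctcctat
Rpsa, chr9:120127756-120127785 (plus strand): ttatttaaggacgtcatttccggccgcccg
Rpl41, chr10:128549149-128549178 (minus strand): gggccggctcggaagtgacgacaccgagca

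The last 3 genes, Rplp0, Rpsa and Rpl41, had no such run at the annotated start; RefSeq starts can differ by some bases from those used in liver. In all, 13 of the 60 genes (21.7%) began exactly with a TOP run, against 813 of 27025 genes in the whole promoter table (3.01%). Within 5 bases of the start, 29 of 60 (48.3%) had one, against 21.2% of all genes. Across the window from 250 bases before to 50 bases after the start, read on both strands, the ETS core GGAAGT was present in 50% of the members and 26.5% of all genes, and the YY1 core AAGATGG in 16.7% and 7.28%. The E box CACGTG (10% and 8.09%) and the letters TATAAA (11.7% and 15.7%) had shares closer to those of all genes. A match is a string of letters, not evidence of binding.

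The table gives read counts per gene divided by a scale factor of each library, which are called normalized counts here. The libraries held 9632659 to 12601199 reads on genes. The deposited scaling left pair-fed and ethanol-fed libraries on different levels (a median ratio over all genes of 0.934 to 0.939 for the former and 1.07 for the latter). IMC was therefore compared within diets on the deposited values, and ethanol was compared on values rescaled over all 16 libraries. Hepatocyte markers were high in every library: 10 of them, Alb and Apoa1 among them, summed to between 1098230 and 1732640 normalized counts.

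Per kilobase of transcript, the members had a median of 2286 normalized counts over the 16 libraries, against 68.3 for all genes tested. The range was 119 to 6429. The highest level per kilobase was that of Rpl10 (6429), a late-joining large subunit protein, followed by Rps18 (6098) at the head of the small subunit and Rplp1 (5884) of the stalk that recruits elongation factors. Rps2 (4418), Rps27 (4398), Rps27a (4278), made as a fusion with ubiquitin, and Rpl26 (4262) were also among the highest. The median transcript was 761 bases long, against 2896 bases for all genes tested, and 30 of the 81 genes (37.0%) held an annotated small nucleolar RNA, against 1.77% of all genes tested. The members lay on 19 chromosomes, with 14 of them on chromosome 7. Above the minimum in every library, Rps4l had 53.4 to 171 normalized counts. Just outside it, Rpl3l, the muscle form of Rpl3, had 0 to 2.75 in 15 libraries and 11.8 in EtOH IMC library 11.

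Reads on the 84 matched genes made up 1.15% ± 0.0409 of all reads in the EtOH control livers (SD, n = 4), the lowest of the 4 groups. The share was 1.63% ± 0.155 in EtOH IMC, 1.53% ± 0.0771 in Pair IMC and 1.38% ± 0.172 in Pair control. The 4 EtOH control livers (1.11 to 1.21%) lay below every EtOH IMC liver (1.46 to 1.80%). The Pair control livers were spread out, at 1.21% in library 10, 1.28% in library 12, 1.42% in library 14 and, at the top, the highest share in library 16, and the highest of them overlapped the Pair IMC range of 1.43 to 1.61%. A few secreted-protein genes take much of a liver library: the 10 genes with most reads held 14.1 to 17.2% of reads in EtOH IMC and 16.2 to 16.5% in EtOH control, 21.2 to 23.0% in Pair IMC and 16.2 to 21.3% in Pair control. With those 10 genes left out, the mean shares were 1.37% in EtOH control, 1.94% in EtOH IMC, 1.97% in Pair IMC and 1.69% in Pair control. In bulk liver, a change in the number of cells of a type and a change in RNA per cell cannot be told apart.

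**Figure D1:**
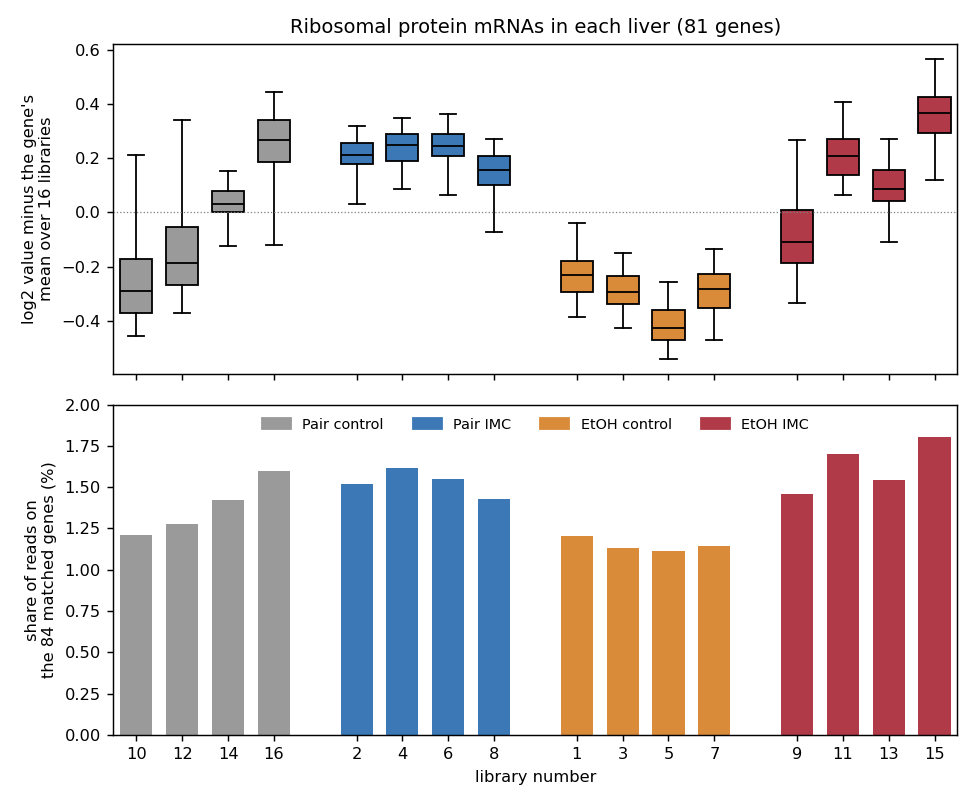
Upper part: for each of the 16 livers, the log2 departure of the 81 genes from each gene's mean over all libraries, on the values rescaled over 16 libraries; boxes give the quartiles and median, whiskers the 5th to 95th percentile. Lower part: the share of reads on the 84 matched genes, in %. The 4 EtOH control livers have medians of -0.43 to -0.23, and the Pair control livers range from -0.29 to 0.27.

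In ethanol-fed mice, ribosomal protein mRNAs were higher with IMC: 63 of the 81 genes passed the test (limma, Benjamini-Hochberg adjusted p under 0.05 over 12535 genes), all of them higher, against 10.5% of all genes tested. They comprised 37 of 48 large subunit and 26 of 33 small subunit genes. The median log2 difference over the 81 genes was 0.45, against 0.00 for all genes tested. The 63 genes rose by 0.26 to 0.77 on the log2 scale, with a median of 1.40-fold. In 58 genes every EtOH IMC liver lay above every EtOH control liver, which held for 12.6% of all genes tested. None fell in limma, edgeR or DESeq2, and 1 was lower at an unadjusted p under 0.05.

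Rplp0 (chr5:115559467-115563727, plus strand), the base of the ribosomal stalk, showed the largest rise among the 81 genes. Its normalized counts were 3437, 3538, 3233 and 3281 in EtOH control and 5049, 5640, 5721 and 6763 in EtOH IMC. The groups did not overlap, and the controls lay close together while the treated livers spread upwards.
The means were 3372 ± 141 and 5793 ± 713 (SD, n = 4 each), a log2 difference of 0.77 ± 0.11 (SE; limma adjusted p = 0.00015). Rpl41 (chr10:128548114-128549305), the shortest ribosomal protein, had 1343, 1342, 1281 and 1289 normalized counts in EtOH control and 1732, 2442, 1995 and 2648 in EtOH IMC. Again all treated livers were higher, with libraries 11 and 15 highest, and the log2 difference was 0.73 ± 0.12 (limma adjusted p = 0.000619). Rpsa (chr9:120127689-120132369), the laminin receptor precursor of the small subunit, had 4406, 4421, 4184 and 4713 normalized counts in EtOH control and 5539, 7861, 7034 and 8730 in EtOH IMC. The groups did not overlap, and the log2 difference was 0.70 ± 0.14 (limma adjusted p = 0.00185).

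All 3 genes of the stalk rose in ethanol-fed mice: beside Rplp0, Rplp1 by 0.54 ± 0.11 and Rplp2 by 0.43 ± 0.11 on the log2 scale (limma adjusted p = 0.00261 and 0.013). Both proteins that escort 5S rRNA into the large subunit and bind Mdm2 when free rose as well, Rpl5 by 0.36 (limma adjusted p = 0.0329) and Rpl11 by 0.41 (limma adjusted p = 0.00992). Rps6, the small subunit protein phosphorylated by S6 kinases, had 1474, 1454, 1253 and 1398 normalized counts in EtOH control and 1622, 1915, 1956 and 2146 in EtOH IMC. These groups were also separate, with a log2 difference of 0.45 ± 0.11 (limma adjusted p = 0.0104). Of the most abundant members per length, Rps27a (0.50, limma adjusted p = 0.0177), Rps18 (0.44, adjusted p = 0.0443) and Rpl10 (0.42, adjusted p = 0.0325) passed the test, while Rpl26 (0.42, adjusted p = 0.0541) and Rps27 (0.34, adjusted p = 0.0765) did not. Single livers mattered for several of them. Without EtOH IMC library 15 the limma adjusted p was 0.102 for Rpl10 and 0.055 for Rps27a. It was 0.131 for Rps18 without EtOH IMC library 11 and 0.0938 for Rpl5 without EtOH control library 5. Of the 16 fits with 1 liver left out, 10 lost the call for Rps18, among them fits without a Pair IMC liver. For Rpl10 and Rpl5 the call was lost in 6 each, and for Rps27a in 2.

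Several of these genes serve as reference genes in quantitative PCR. Of 7 such genes (Rplp0, Rpl4, Rpl13a, Rpl19, Rpl32, Rps18 and Rps29), 6 rose with IMC in ethanol-fed mice. Among all 81 members 63 rose, and 10.5% of all genes tested did. Rpl13a was higher by 0.67 ± 0.11 on the log2 scale (limma adjusted p = 0.00057), Rps29 by 0.48 (limma adjusted p = 0.0233), Rpl19 by 0.45 (limma adjusted p = 0.011) and Rpl32 by 0.44 (limma adjusted p = 0.0257). Rpl4 differed by 0.29 (limma adjusted p = 0.0554). Without EtOH IMC library 15 the limma adjusted p was 0.0767 for Rps29 and 0.0861 for Rpl32. Their calls were lost in 3 and 4 of the 16 fits with 1 liver left out.

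Beside Rpl26, Rps27 and Rpl4, the genes that did not pass in ethanol-fed mice included Rpl3, Rpl7, Rpl15, Rpl17, Rpl21, Rpl22, Rpl22l1, Rpl31, Rpl35a, Rps4x, Rps4l, Rps12, Rps15a and Rps23. Set by annotated start site, the 29 genes with a TOP run within 5 bases had a median of 0.44, the 31 without one 0.45 and the 21 without a RefSeq window 0.48. The starts used in liver can differ from those annotated. These medians therefore do not compare mRNAs with and without the TOP motif. Over the 81 genes, which share libraries, Spearman's rho of the difference was 0.35 with the transcript's GC content, -0.05 with its length and -0.01 with its level per kilobase.

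The count rested in part on single libraries. Leaving out 1 liver at a time gave 42 to 73 genes and medians of 0.38 to 0.54. The count was 42 without EtOH control library 5 or EtOH IMC library 15, against 7.76% and 8.66% of all genes tested. Library 15 also has the least secure conversion of values back to reads. Without it, edgeR and DESeq2 called 42 and 49 genes higher, against 9.49% and 10% of all genes tested.

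**Figure D2:**
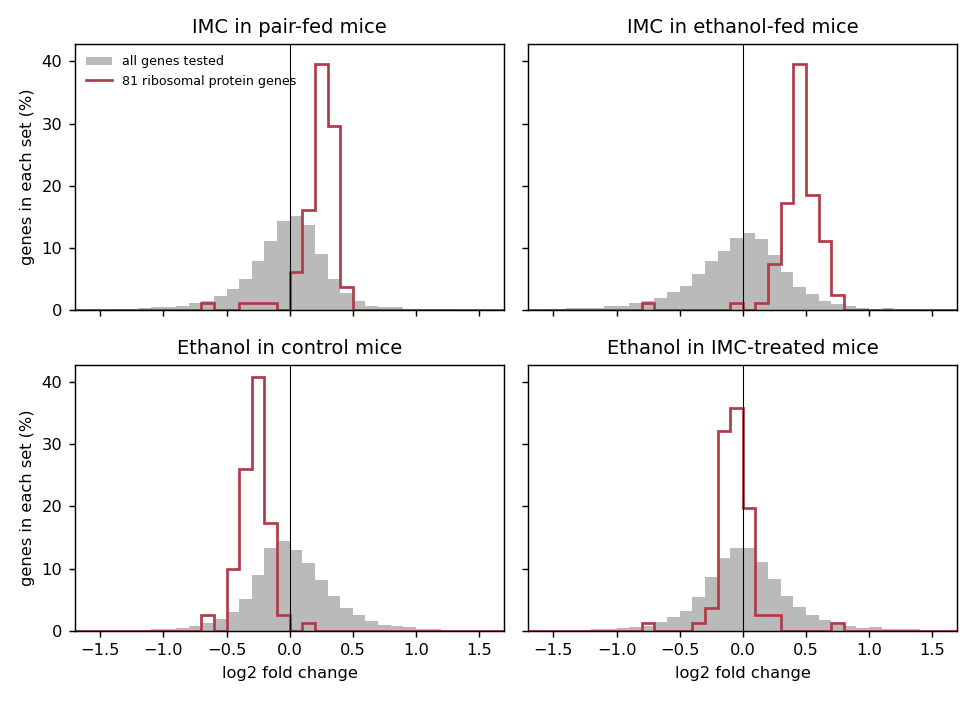
Log2 differences in 4 comparisons, in bins of 0.1: the 81 ribosomal protein genes (red outline) and all 12535 genes tested, each as a share of its own set. For IMC in ethanol-fed mice the 81 genes centre on 0.45 and all genes on 0.00; for ethanol in control mice they centre on -0.26 and -0.01.

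In pair-fed mice most of these genes lay above 0 with IMC, and few passed the test. The median log2 difference over the 81 genes was 0.26, against -0.00 for all genes tested, and 77 of the 81 were above 0. By limma, 2 genes rose, against 4.27% of all genes tested, and DESeq2 called 4 higher, against 5.42% of all genes tested. None fell in limma, edgeR or DESeq2. At an unadjusted p under 0.05, 46 were higher, against 12.8% of all genes tested, and 1 was lower. In 5 genes (Rplp0, Rpl32, Rps16, Rps27l and Rps28) every Pair IMC liver exceeded every Pair control liver, a pattern shown by 7.4% of all genes tested.

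Rplp0 had 2777, 3402, 3614 and 4141 normalized counts in Pair control and 4542, 5108, 5157 and 4525 in Pair IMC. The log2 difference was 0.48 ± 0.11 (limma adjusted p = 0.0117). The other gene that rose was Rps27l, a paralog of Rps27 known as a p53 target, with 1098, 1088, 1177 and 1188 normalized counts in Pair control and 1465, 1454, 1537 and 1483 in Pair IMC. Its groups were tight and well apart, and it rose by 0.38 ± 0.10 (limma adjusted p = 0.0223, and 0.0651 without Pair IMC library 6).
Rpsa differed by 0.42 (limma adjusted p = 0.0598), with 3593, 3882, 4941 and 5545 normalized counts in Pair control and 5528, 6112, 6297 and 5781 in Pair IMC, so that library 16 reached the lowest treated liver.

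The number of genes called in pair-fed mice turned on Pair control library 16, whose ribosomal protein level was the highest of its group. Without it, 40 genes rose, against 3.98% of all genes tested, and the median was 0.37. Without Pair control library 10, the lowest of its group, 1 gene rose and the median was 0.17. Without 1 other library the count was 1 (Pair control 12, Pair IMC 4 or 6) to 7 (EtOH IMC 9). With libraries 15 and 16 both left out 50 genes rose in pair-fed and 56 in ethanol-fed mice, against 4.4% and 9.34% of all genes tested. The count also turned on the treatment of transcript composition: with trends in GC content and length removed, 49 genes rose in pair-fed mice, against 5.12% of all genes tested, and the median was 0.33.

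Averaged over both diets, which balances the library numbers, 71 of the 81 genes were higher with IMC (42 large and 29 small subunit genes), against 14.2% of all genes tested, and 1 gene, Rpl22l1, was lower, against 14% of all genes tested. The median was 0.36 and the 71 genes rose by 0.21 to 0.63 on the log2 scale. Rplp0 again had the largest difference (0.63 ± 0.08, limma adjusted p = 2.93e-05), followed by Rpsa (0.56, limma adjusted p = 0.000426) and Rpl41 (0.52, limma adjusted p = 0.000316). All 7 quantitative PCR reference genes passed in this comparison. Leaving out 1 liver at a time kept the count between 68 and 73.

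The difference of the IMC effects between the 2 diets cannot be told apart from that between the runs of library numbers. No gene of the 81 passed in limma, against 1.1% of all genes tested in either direction, and none passed in edgeR. DESeq2 called 3 higher and 0 lower, against 0.965% and 1.76% of all genes tested in DESeq2. At an unadjusted p under 0.05, 18 genes had a larger IMC effect in ethanol-fed mice, against 7.44% of all genes tested. The difference was above 0 in 77 of 81 genes, with a median of 0.17 and a range of -0.13 to 0.87. The median was 0.07 without Pair control library 16 and 0.27 without Pair control library 10, and beyond those 2 it was 0.26 without EtOH IMC library 9 and 0.11 without EtOH IMC library 15. The largest was that of Rpl13 (0.87 ± 0.26, limma adjusted p = 0.117), followed by Rps2 with 0.53 ± 0.16 (limma adjusted p = 0.123).

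Ethanol itself was compared in vehicle-treated mice on the rescaled values. Of the 81 genes 19 fell and 0 rose, 12 of them of the large and 7 of the small subunit, against 5.52% of all genes tested that fell. At an unadjusted p under 0.05, 41 were lower, against 13.5% of all genes tested, and 0 higher, and edgeR and DESeq2 called 0 higher. The median was -0.26, against -0.01 for all genes tested, and 80 of the 81 were below 0. The 19 genes ranged from -0.67 to -0.30 on the log2 scale. In 21 genes every EtOH control liver lay below every Pair control liver, as in 9.06% of all genes tested.

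Rpl13a, the subunit of the interferon-responsive GAIT complex, had 1920, 2239, 2192 and 2996 rescaled counts in Pair control and 1731, 1744, 1593 and 1662 in EtOH control. All ethanol-fed livers were lower, by -0.45 ± 0.11 on the log2 scale (limma adjusted p = 0.0151). Rps2, a small subunit protein at the mRNA entry site, had 5868, 6859, 4936 and 4407 rescaled counts in Pair control and 3920, 4080, 3545 and 3864 in EtOH control, and it fell by 0.50 ± 0.11 (limma adjusted p = 0.0103). Rpl13 had 1867, 1999, 1082 and 1251 in Pair control and 1084, 996, 887 and 834 in EtOH control. Its fall of 0.67 ± 0.19 (limma adjusted p = 0.0275) came mostly from libraries 10 and 12, since libraries 14 and 16 lay near the EtOH control range. Without library 12 the limma adjusted p was 0.0801. Rpl41 fell by 0.44 (limma adjusted p = 0.028, and 0.0764 without Pair control library 16) and Rplp1 by 0.38 (limma adjusted p = 0.0317, and 0.0864 without EtOH control library 5). With 1 liver left out, 6 of the 16 fits lost the call for Rpl41, 7 for Rplp1 and 4 for Rpl13.

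The ethanol result depended on the scaling. On the deposited values, in which the median gene differs between the diets, 0 of the 81 genes fell and 1 rose by limma, with a median of -0.08. Of all genes tested, 1.59% fell and 22.3% rose on those values. The count of lower genes also depended on single livers, and so did the share of all genes tested that fell. It was 4 (2.64% of all genes tested) without EtOH control library 5 and 7 (3.33%) without Pair control library 14. Without EtOH control library 3 or 7 it was 8 (3.85% and 3.57%). Without Pair control library 16 it was 10 (4.75%), and without Pair control library 10 it was 28 (4.25%). Stellate cell markers moved with ethanol in the same livers, with 3 of 8 higher, against 6.33% of all genes tested (Lrat 1.16, Pdgfrb 0.63 and Dcn 0.40 on the log2 scale). Their summed rescaled counts were 3107 to 4390 in Pair control and 4498 to 5435 in EtOH control. Of 10 hepatocyte markers 1 fell, the fibrinogen gene Fgb (-0.63), and of 10 endothelial markers 1 rose, the junction protein Cdh5 (0.45). These 5 marker genes are named after their values were seen. The part of these markers in the ethanol result was not tested.

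Ethanol in IMC-treated mice is a comparison of other livers. Here 1 gene of the 81 passed, Rpl3, which was lower, against 8.61% of all genes tested. The median over the 81 genes was -0.07 on rescaled values and 0.12 on the deposited values. On the deposited values 6 genes rose, against 25.4% of all genes tested, and 0 fell, against 3.52%. Rpl3, whose loop reaches the peptidyl transferase centre, had 3710, 3080, 3328 and 3914 rescaled counts in Pair IMC and 2148, 3143, 2706 and 2726 in EtOH IMC. Library 11 of the ethanol-fed livers overlapped the Pair IMC range. The fall was 0.39 ± 0.12 on the log2 scale (limma adjusted p = 0.037, and 0.118 without library 9). Of the 16 fits with 1 liver left out, 6 lost this call. With IMC in ethanol-fed mice Rpl3 differed by -0.06 ± 0.12 (limma adjusted p = 0.778), at 3092, 2831, 2923 and 2977 normalized counts in EtOH control and 2302, 3366, 2885 and 2911 in EtOH IMC. It was 1 of 2 members below 0 in that comparison.

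**Figure D3:**
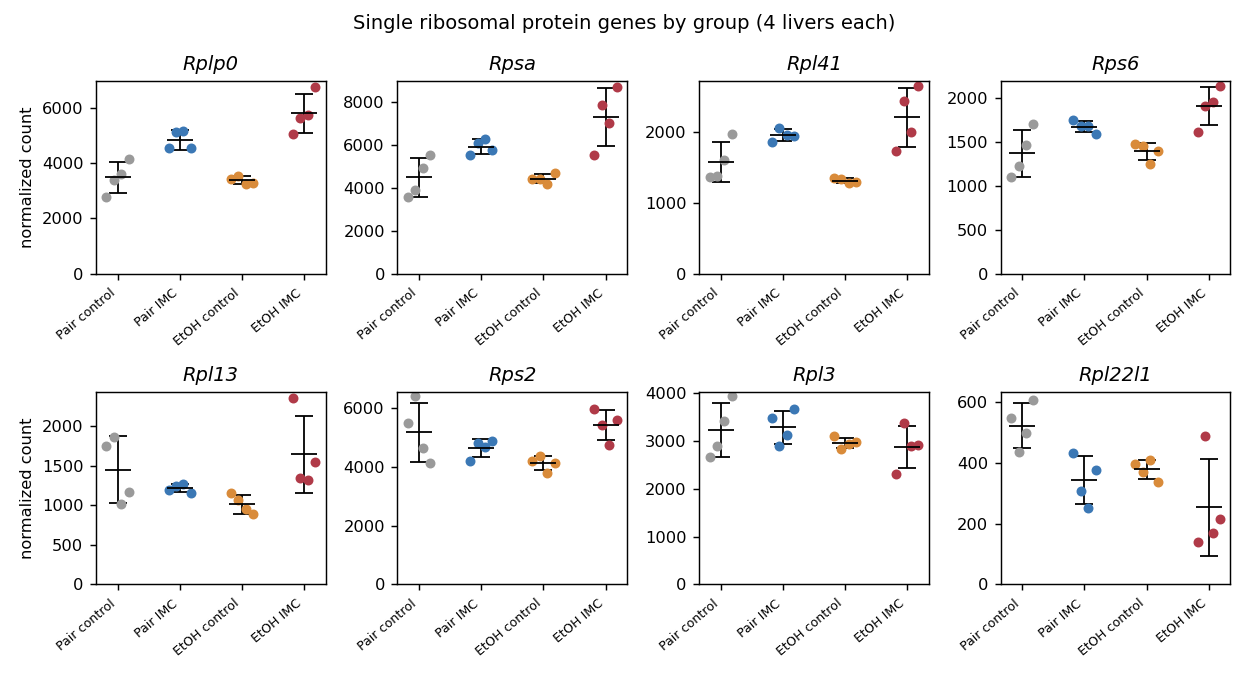
Normalized counts of 8 ribosomal protein genes in the 4 groups, as deposited; points are livers, bars the mean ± SD (n = 4). Rplp0, Rpsa, Rpl41 and Rps6 are higher in all 4 EtOH IMC livers than in any EtOH control liver, Rpl3 is not, and Rpl22l1 is low in 3 of the 4 EtOH IMC livers and 488 in the other one.

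Beyond the group means, most of the genes moved together from liver to liver. After subtracting the group means, the median correlation between pairs of the 81 genes over the 16 livers was 0.84, and 64 genes had a correlation over 0.8 with the median of the other members; these points share library and depth, and no test was made. In 12 genes the correlation was under 0.5, and in 6 it was below 0, namely Rpl13 (-0.63), Rps2 (-0.54), Rpl27a (-0.46), Rps4l (-0.43), Rplp2 (-0.29) and Rpl36 (-0.18), which were singled out after their values were seen.
Several of the 6 went together among themselves: the correlation was 0.838 between Rpl13 and Rpl27a, 0.840 between Rplp2 and Rpl36, 0.766 between Rplp2 and Rpl27a, and 0.759 between Rpl13 and Rps2.

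Their livers were ordered otherwise than those of the other genes. Rpl13 had 1749 and 1870 normalized counts in Pair control libraries 10 and 12 but 1016 and 1168 in libraries 14 and 16, and in EtOH IMC it had 2364 in library 9 and 1349, 1325 and 1555 in the other three. Rpl10, by contrast, had 3723 and 3955 in libraries 10 and 12 and 4978 and 5710 in libraries 14 and 16, and 4575 in library 9 against 6264, 6084 and 7191. The livers in which Rpl13 was highest were thus those in which Rpl10 was lowest within these groups. Rps2 followed Rpl13 in Pair control, with 5496, 6415, 4633 and 4114 normalized counts. In pair-fed mice both were below 0 with IMC, Rpl13 at -0.20 ± 0.19 and Rps2 at -0.14 ± 0.12 on the log2 scale (limma adjusted p = 0.528 and 0.495). In ethanol-fed mice both rose, by 0.67 ± 0.19 and 0.39 ± 0.12 (limma adjusted p = 0.0171 and 0.0216). Without EtOH IMC library 9 the limma adjusted p of Rpl13 was 0.0529, and without EtOH control library 5 that of Rps2 was 0.0626.

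**Figure D4:**
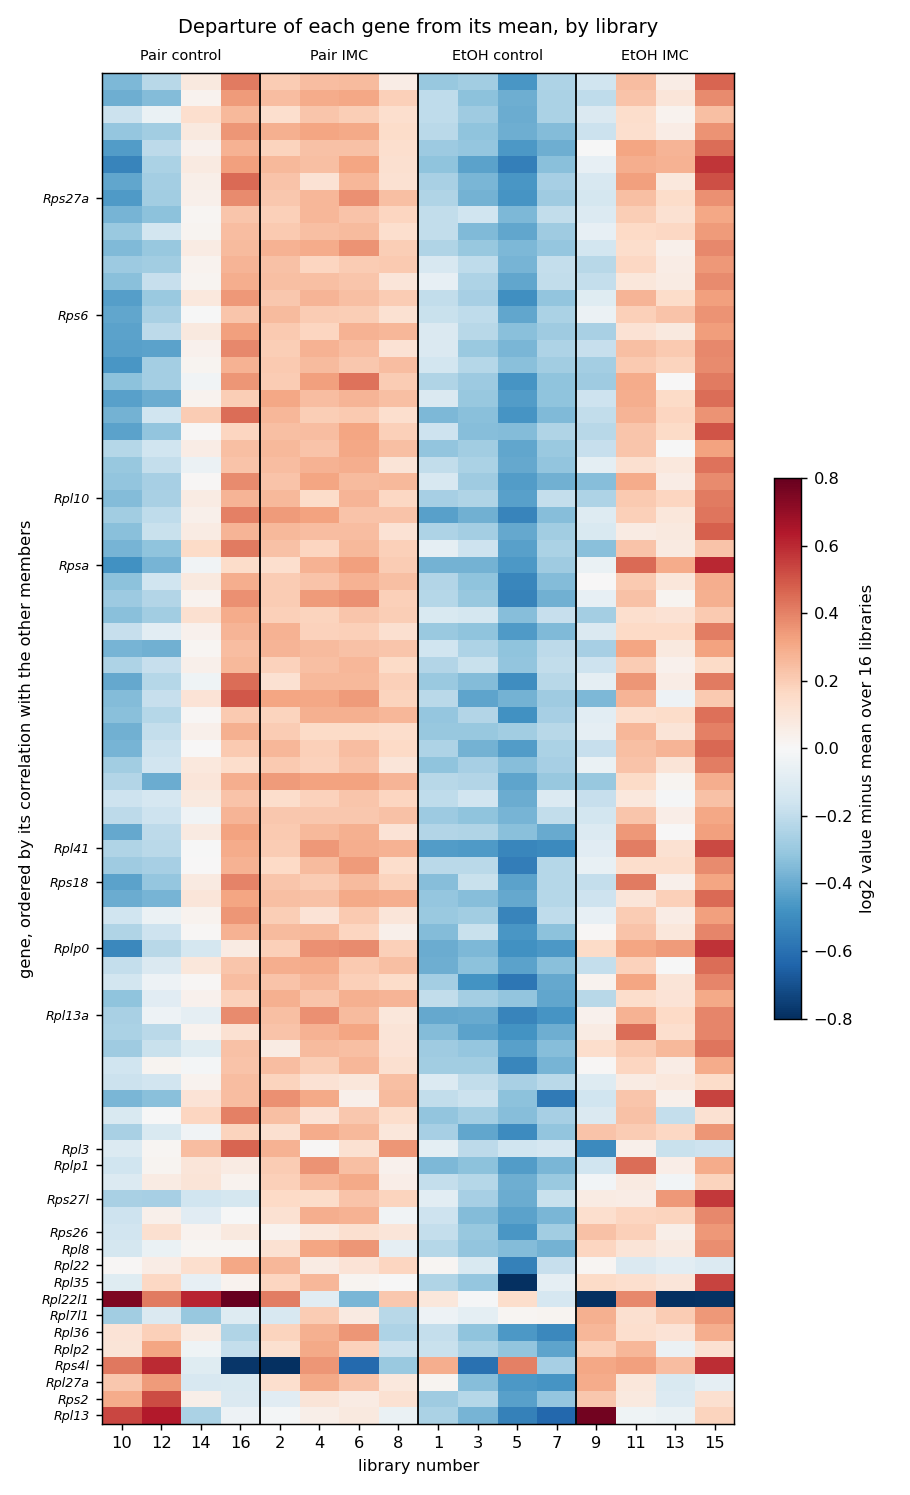
The 81 genes (rows) in the 16 livers (columns, by group): rescaled log2 value minus the gene's mean over all livers, with colours ending at ±0.8; names are given for some of the genes, among them the 12 with a correlation under 0.5. Rows are ordered by the correlation, after subtracting group means, with the median of the other members, which runs down to -0.63 for Rpl13; most rows share 1 pattern over the livers, and the 6 rows with a correlation below 0 do not.

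Ribosomal protein paralogs are genes that can replace a core protein in some tissues. Of 7 looked for, 4 reached the minimum count and were tested. Rpl22l1 (chr3:28805436-28807424), whose protein can take the place of Rpl22, was the 1 gene of the 81 that fell with IMC. It had 548, 436, 500 and 609 normalized counts in Pair control and 435, 307, 253 and 378 in Pair IMC, 396, 370, 412 and 339 in EtOH control, and 141, 488, 170 and 215 in EtOH IMC. In pair-fed mice every treated liver lay below every control liver, and in ethanol-fed mice 3 of 4 did, while library 11 was above all controls.

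Averaged over diets Rpl22l1 fell by 0.69 ± 0.19 on the log2 scale (limma adjusted p = 0.0113), with -0.88 to -0.58 when single livers were left out. Within diets the differences were -0.63 ± 0.27 and -0.75 ± 0.27 (limma adjusted p = 0.148 and 0.052), and without library 11 the latter was -1.13 (limma adjusted p = 0.000362) and the former had a limma adjusted p of 0.0198. Rpl22 itself stayed between 791 and 1247 normalized counts in all livers and differed with IMC by 0.02 in pair-fed and 0.13 in ethanol-fed mice (limma adjusted p = 0.362 in the latter). The ratio of Rpl22l1 to Rpl22 counts was 0.414 to 0.540 in Pair control, 0.232 to 0.358 in Pair IMC and 0.334 to 0.520 in EtOH control. In EtOH IMC it was 0.121, 0.157 and 0.202 in 3 livers and 0.458 in library 11. With ethanol in control mice, Rpl22 fell by 0.34 ± 0.10 (limma adjusted p = 0.0381). Without EtOH control library 5 the limma adjusted p was 0.125, and on the deposited scaling it was 0.31. This call of Rpl22 was lost in 6 of the 16 fits with 1 liver left out.

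Of the other paralogs, Rps27l rose in both diets, by 0.49 in ethanol-fed mice (limma adjusted p = 0.00226), where its partner Rps27 differed by 0.34 (limma adjusted p = 0.0765). Rpl7l1, a nucleolar relative of Rpl7, rose by 0.26 in ethanol-fed mice (limma adjusted p = 0.0435, and 0.106 without EtOH IMC library 15). The call was lost in 8 of the 16 fits with 1 liver left out. Rpl7 differed by 0.25 (limma adjusted p = 0.179). Rpl7l1 was also the 1 member above 0 with ethanol in control mice (0.18, limma adjusted p = 0.198). Rps4l, annotated as a transcribed pseudogene of the Rps4 family, differed by 0.41 in ethanol-fed and -0.40 in pair-fed mice (limma adjusted p = 0.329 and 0.425), and its core partner Rps4x by 0.28 in ethanol-fed mice (limma adjusted p = 0.199). Rpl39, the partner of the testis form Rpl39l, rose by 0.44 (limma adjusted p = 0.0383, and 0.12 without EtOH IMC library 15). This call was lost in 7 of the 16 fits with 1 liver left out. Rpl39l was at 0 to 2 and Rpl10l at 0. Ribosomal protein genes have many processed copies with near-identical sequence, and how the counting treated such reads is not given in the sources used here, so the values of single members are uncertain to that extent. The 6 rows named as pseudogenes reached at most 18.2 normalized counts.

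Cytosolic ribosomal proteins whose symbols the selection did not match were also higher with IMC in ethanol-fed mice. Rack1, the scaffold on the small subunit head, rose by 0.51 (limma adjusted p = 0.00359), Rpl36al by 0.36 (limma adjusted p = 0.0199) and Fau, the precursor of Rps30, by 0.36 (limma adjusted p = 0.0169). Fau fell by 0.38 with ethanol in control mice (limma adjusted p = 0.0201).

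Genes around the ribosome were described from fixed lists. Each is to be read against the 10.5% of all genes tested that rose and the 11.1% that fell with IMC in ethanol-fed mice. The genes named are the 2 of each list with the lowest p in that comparison, and Myc, which was added outside this rule. Of 19 genes of mTORC1 signalling and TOP mRNA control, 3 rose and 2 fell, with Sesn2, a leucine sensor that restrains mTORC1, higher by 0.89 and Sesn3, its relative, at -0.72 (limma adjusted p = 0.00085 and 0.00235). Of 16 TOP mRNAs that encode no ribosomal protein, 3 rose with IMC, among them Nap1l1, a histone chaperone (0.35, limma adjusted p = 0.00769), and Eif3h (0.27, limma adjusted p = 0.00962), and 7 fell with ethanol in control mice, where 5.52% of all genes tested fell. Of 8 elongation factors 2 rose, Eef1g by 0.40 and Eef1b2 by 0.39 (limma adjusted p = 0.00144 and 0.0246), both subunits of the exchange factor of Eef1a.

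Of 12 dedicated chaperones and assembly factors of ribosomal proteins, 7 rose, with Sdad1, a 60S export factor, at 0.65 and Heatr3, an importer of Rpl5, at 0.57 (limma adjusted p = 0.000555 and 0.00124). Of 25 genes of RNA polymerase I and MYC, which drive rRNA synthesis, 5 rose, including Polr1a (0.55, limma adjusted p = 0.000318), Polr1d (0.47, limma adjusted p = 0.000524) and Myc (1.43, limma adjusted p = 0.00146). Of 21 genes of 5S rRNA transcription and RNA polymerase III, 2 rose and 1 fell: Maf1, its repressor, was at 0.32 and Polr3k at -0.33 (limma adjusted p = 0.0116 and 0.0329). In the p53 arm, which free Rpl5 and Rpl11 can engage, 5 of 11 genes rose and 2 fell, with Bax, a promoter of apoptosis, at 1.13 (limma adjusted p = 7.3e-05) and Sesn2 among the risers.

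Of 46 translation initiation factors 17 rose and 1 fell, with Eif2s2 0.51 higher and Eif4e3, a cap-binding protein, at -1.39 (limma adjusted p = 0.000775 for the latter). Of 20 cytosolic aminoacyl-tRNA synthetases, which charge tRNAs, 11 rose, with Vars at 0.57 (limma adjusted p = 0.000853) and Nars at 0.42. Other large complexes had lower shares: 13 of 78 mitochondrial ribosomal proteins rose and 1 fell (Mrps18b 0.68, Mrpl50 0.38), 5 of 38 proteasome subunits rose and 2 fell (the immunoproteasome subunits Psmb9 -0.89 and Psmb8 -0.44), and 3 of 82 nuclear respiratory chain subunits fell (Ndufs1 -0.34 and Ndufb3 -0.41). The medians of these 3 lists were 0.09, 0.11 and -0.01 on the log2 scale.

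Markers of the other cell types of liver were set beside the IMC effect in ethanol-fed mice. Of 10 hepatocyte markers 1 rose (Hnf4a, 0.62) and 1 fell (Cyp2e1, -0.81), and their summed counts overlapped, at 1148290 to 1302880 in EtOH control and 1098230 to 1396890 in EtOH IMC. The gene nearest to passing was Adgre1 (-0.56, limma adjusted p = 0.108) among 10 Kupffer cell markers, Oit3 (-0.40, adjusted p = 0.0651) among 10 endothelial, Spp1 (-0.19, adjusted p = 0.248) among 5 bile duct and Mki67 (-1.69, adjusted p = 0.0556) among 7 proliferation markers. Of 8 stellate cell markers 3 fell, against 11.1% of all genes tested (Reln -1.26 and Pdgfrb -0.69 among them), and the summed counts of the list did not overlap, at 4796 to 5810 in EtOH control and 3171 to 4288 in EtOH IMC. Lymphocyte markers were at 225 to 287 and 125 to 173 summed counts, with 1 of 3 tested lower (Ptprc, -0.77). Of 4 erythroid markers tested 2 fell (Alas2 -0.87 and Hba-a1 -1.31), and Slc4a1 was under 3 counts in every library. The part of these differences in the ribosomal protein result was not tested.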

How the data were processed

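RNA of 16 mouse livers was sequenced from strand-specific (TruSeq) libraries. Per the labels the authors used Trim Galore, FastQC, STAR and edgeR on the mm10 build; the counting tool is not given in the sources used here. The deposited signal is read counts divided by a factor per library. Whole reads were recovered from it (100% of values within 0.01 of a whole number). No per-sample column was left out; the authors' own comparisons were not used.

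Genes with at least 10 in at least 4 libraries, 1 row per Ensembl ID, were tested on log2(value + 1) with limma 3.58.1 in R 4.3.3: group means as coefficients, variance trended on expression, two-sided, p adjusted by Benjamini-Hochberg over all genes tested and called under 0.05. Ethanol contrasts used values rescaled by a median ratio. Fold changes are on the log2(value + 1) scale. Lengths and positions came from GENCODE on GRCm38. The recovered reads were also tested with edgeR 4.0.16 and with DESeq2 1.42.0. The fit was tested on simulated data. Some genes are not reported here.

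The members, lists and named genes (highest per length, largest changes in each comparison, paralogs, reference genes) were chosen with earlier results of these data known. Replicates are different livers, and no 2 libraries of a group agreed within counting noise. Comparisons that share a control group are not independent.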

Additional observations from a re-analysis of the deposited data

Results flagged for a closer look

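Of 124 sets of 4 livers examined for a sample far from the others (Dixon's test), 1 stood out, and chance alone gives about 1 in 20. Rpl22, the large subunit protein that Rpl22l1 can replace, had 1167 normalized counts in EtOH IMC library 9, while the other three EtOH IMC livers were at 1066 to 1083; this gap was 0.832 of the group's range, just past the critical value for 4 samples. The cause was not tested.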

How the results depend on the processing

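No paired analysis was possible because the library numbers differ between groups. Median differences kept their sign under the alternatives except for ethanol in IMC-treated mice. That median was 0.12 on the deposited scaling and 0.005 without EtOH IMC library 9. IMC in ethanol-fed mice gave 42 to 73 higher members with single livers left out, the IMC effect averaged over diets 68 to 73, IMC in pair-fed mice 1 to 40, its difference between diets 0 to 1, and ethanol 4 to 28 lower members in control and 0 to 2 in IMC-treated mice. With single livers left out, 7.73 to 11.1% of all genes tested rose with IMC in ethanol-fed mice and 1.68 to 5.19% in pair-fed mice. With ethanol in control mice 2.64 to 5.9% fell. IMC in pair-fed mice gave 6 higher members with quantile normalization and 49 with GC content and length trends removed, against 4.04% and 5.12% of all genes tested. It gave 4 with DESeq2, 8 with DESeq2 without library 15 and 50 without libraries 15 and 16, against 5.42%, 5.97% and 4.4%. The difference between diets gave 3 higher members with DESeq2 and 2 with DESeq2 without library 15, against 0.965% and 0.622% of all genes tested. Ethanol in control mice gave 0 lower members on the deposited scaling and 8 without the mean-variance trend, against 1.59% and 4.44% of all genes tested. It gave 12 with GC content and length trends removed and 30 with DESeq2 without library 15, against 6.38% and 7.23%. Ethanol in IMC-treated mice gave 0 lower members with no filter, on the deposited scaling, with quantile normalization, without the trend, with only the libraries compared, and with edgeR (upper quartile, or without library 15). In these settings 3.52 to 7.59% of all genes tested fell. On the deposited scaling 6 members rose, against 25.4% of all genes tested. Leaving out the 10 genes with most reads moved the share of reads to 1.69, 1.97, 1.37 and 1.94%. Widening the start site from 0 to 5 bases moved the share with a TOP run from 21.7 to 48.3% in the members and from 3.01 to 21.2% in all genes. The causes were not tested, beyond the fewer samples where libraries were left out. Alternatives without library 15, or libraries 15 and 16, were added after seeing the data. Of the checks on the main results, 152 stayed the same and 40 moved. Of the values of single genes and other counts, 2027 were unchanged in direction and call, 159 were no longer called, 10 became called and 22 moved. At 4 livers a group, differences within the spread between livers could not be resolved.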
